A study of Capra hircus with 13 samples.

Results

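The mitochondrial ribosomal protein genes were taken as every gene name that begins with MRPL or MRPS followed by a digit. The rule found 77 genes among the 18138 names shared by 13 RNA-seq libraries of goat oocytes and embryos. By symbol, 49 of them encode the large subunit (MRPL) and 28 the small subunit (MRPS) of the ribosome of mitochondria. The libraries comprised 3 of MII oocytes, which are mature oocytes arrested in meiosis, 3 of 4-cell embryos and 3 of 8-cell embryos, all untreated, and 4 of 8-cell embryos injected as zygotes some hours after in vitro fertilization. Of the injected libraries, 2 received a universal negative control (NC) siRNA and 2 received siRNA against YTHDF2, and each was made from a pool of embryos. The untreated libraries came from 2 earlier studies of the authors, and which library came from which study is not given, so stage and study cannot be told apart. Breed and donor animals are not given in the labels used here, and nothing states that replicates of a group came from separate cultures, so the p-values measure only the spread between these libraries.

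Mitochondria keep a genome of their own, and its messages are read by a ribosome that differs from the ribosome of the cytosol. The rRNAs of this ribosome are encoded by mitochondrial DNA, whereas its proteins are encoded by nuclear genes, made in the cytosol and imported. Its products are core subunits of the respiratory chain and of the ATP synthase. Many of its proteins have a homolog in the bacterial ribosome and the rest are found in mitochondria alone, and here 44 members were grouped as bacterial homologs and 31 as mitochondria-specific, with MRPS18A and MRPS36 in neither group. The symbols follow an early naming. MRPS18A and MRPS30 are now known as proteins of the large subunit, and MRPS36 as a component of the 2-oxoglutarate dehydrogenase complex. Early cleavage runs on mRNA stored in the oocyte until the embryo's own genome is switched on, and YTHDF2 is a reader of the m6A mark that directs marked mRNA to decay.

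Levels are given in FPKM, the authors' fragment counts scaled to the exon length of the gene and to the mapped fragments of the library, and so may be compared between genes. Whole fragments could be recovered from the steps of the untreated values, with totals of 26853876 to 42495116 fragments per library, whereas the depth of the injected libraries is unknown. In the MII libraries 57.1 to 59.8% of the fragments lay on the shared genes, against 81.4 to 87.4% in every 4-cell and 8-cell library, so FPKM of MII and of embryos have different bases and comparisons with MII are also given after rescaling. FPKM is a share of each library, and the libraries are of whole oocytes or embryos, so fewer cells and less RNA per cell cannot be told apart. In the untreated libraries 10 of the 12 listed oocyte and cleavage embryo markers were in the tables. Their summed level lay between 2803 and 5528 FPKM there and between 2040 and 4408 FPKM in the injected libraries. The cumulus and granulosa cell markers summed to 58.1 to 151 FPKM in untreated and 45.7 to 94.3 FPKM in injected libraries. The receptor FSHR was at 0 in 10 of the 13 libraries and its highest level was 0.248 FPKM, and most of the sum came from HAS2, STAR, VCAN and TNFAIP6. Sperm markers summed to at most 0.99 FPKM in untreated and 5.13 to 27.1 FPKM in injected libraries, and blood markers to at most 6.76 FPKM.

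Mitochondrial ribosomal protein mRNAs were present over a very wide range of levels in oocytes and embryos. The highest by the mean over the untreated libraries, 403 FPKM, was MRPL18, a protein of the central protuberance of the large subunit, with 397, 421 and 508 FPKM in MII oocytes, 393, 365 and 546 FPKM at the 4-cell stage and 256, 407 and 338 FPKM at the 8-cell stage. The stages overlapped, and MRPL18 was called in no comparison. MRPS36 followed with a mean of 266 FPKM, and at the 8-cell stage its mean of 426 FPKM was above the 334 FPKM of MRPL18, though their libraries overlapped. MRPL42, a mitochondria-specific protein, was next with 200.5, 292 and 176 FPKM in MII, 301, 278 and 272 FPKM at 4-cell and 140.2, 209 and 232 FPKM at 8-cell. MRPL37, also mitochondria-specific, came next in the large subunit with a mean of 112 FPKM over the untreated libraries. Among the MRPS genes MRPS36 was followed by MRPS14 and MRPS16, both homologs of bacterial small subunit proteins, with means of 65.4 and 62.7 FPKM. The mean of MRPS14 rested on MII replicate 2, and without that library it was 27.7 FPKM, against 60.9 FPKM for MRPS16. The 3 highest members together held 38.0 to 55.0% of the summed FPKM of all 77 in every untreated library, so the sum describes a few genes and not the set.

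At the other end, 11 members had a mean below 1 FPKM over the untreated libraries and were not tested between stages. They were MRPL9, MRPL10, MRPL12, MRPL13, MRPL28, MRPL30, MRPL40, MRPS7, MRPS12, MRPS18A and MRPS34. They include proteins of known function. MRPL12 and MRPL10 form the stalk that recruits translation factors, and MRPS12 lies at the decoding centre. The lowest of the large subunit were MRPL9 with 0 to 5 fragments per library, MRPL30 with 0 to 30 fragments and MRPL28 with 1 to 29 fragments. The lowest of the small subunit were MRPS12 with 0 to 49 fragments, MRPS18A with a mean of 0.619 FPKM and MRPS34 with a mean of 0.685 FPKM. MRPL12 had 0.458, 1.29 and 0.35 FPKM in MII, 0.431, 2.28 and 1.78 FPKM at 4-cell and 0.821, 0.661 and 0 FPKM at 8-cell. Where 3 fragments are taken as the floor, the value of 0 for MRPL12 allows up to 0.0816 FPKM by counting error. Thus in the untreated libraries mRNAs for some proteins of the same particle stood at a high level. Others were low there, some of them at or near the floor. In the NC siRNA libraries, which were scaled apart, the means of these 11 members ranged from 3.72 FPKM (MRPS12) to 62.1 FPKM (MRPS7).

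**Figure D1:**
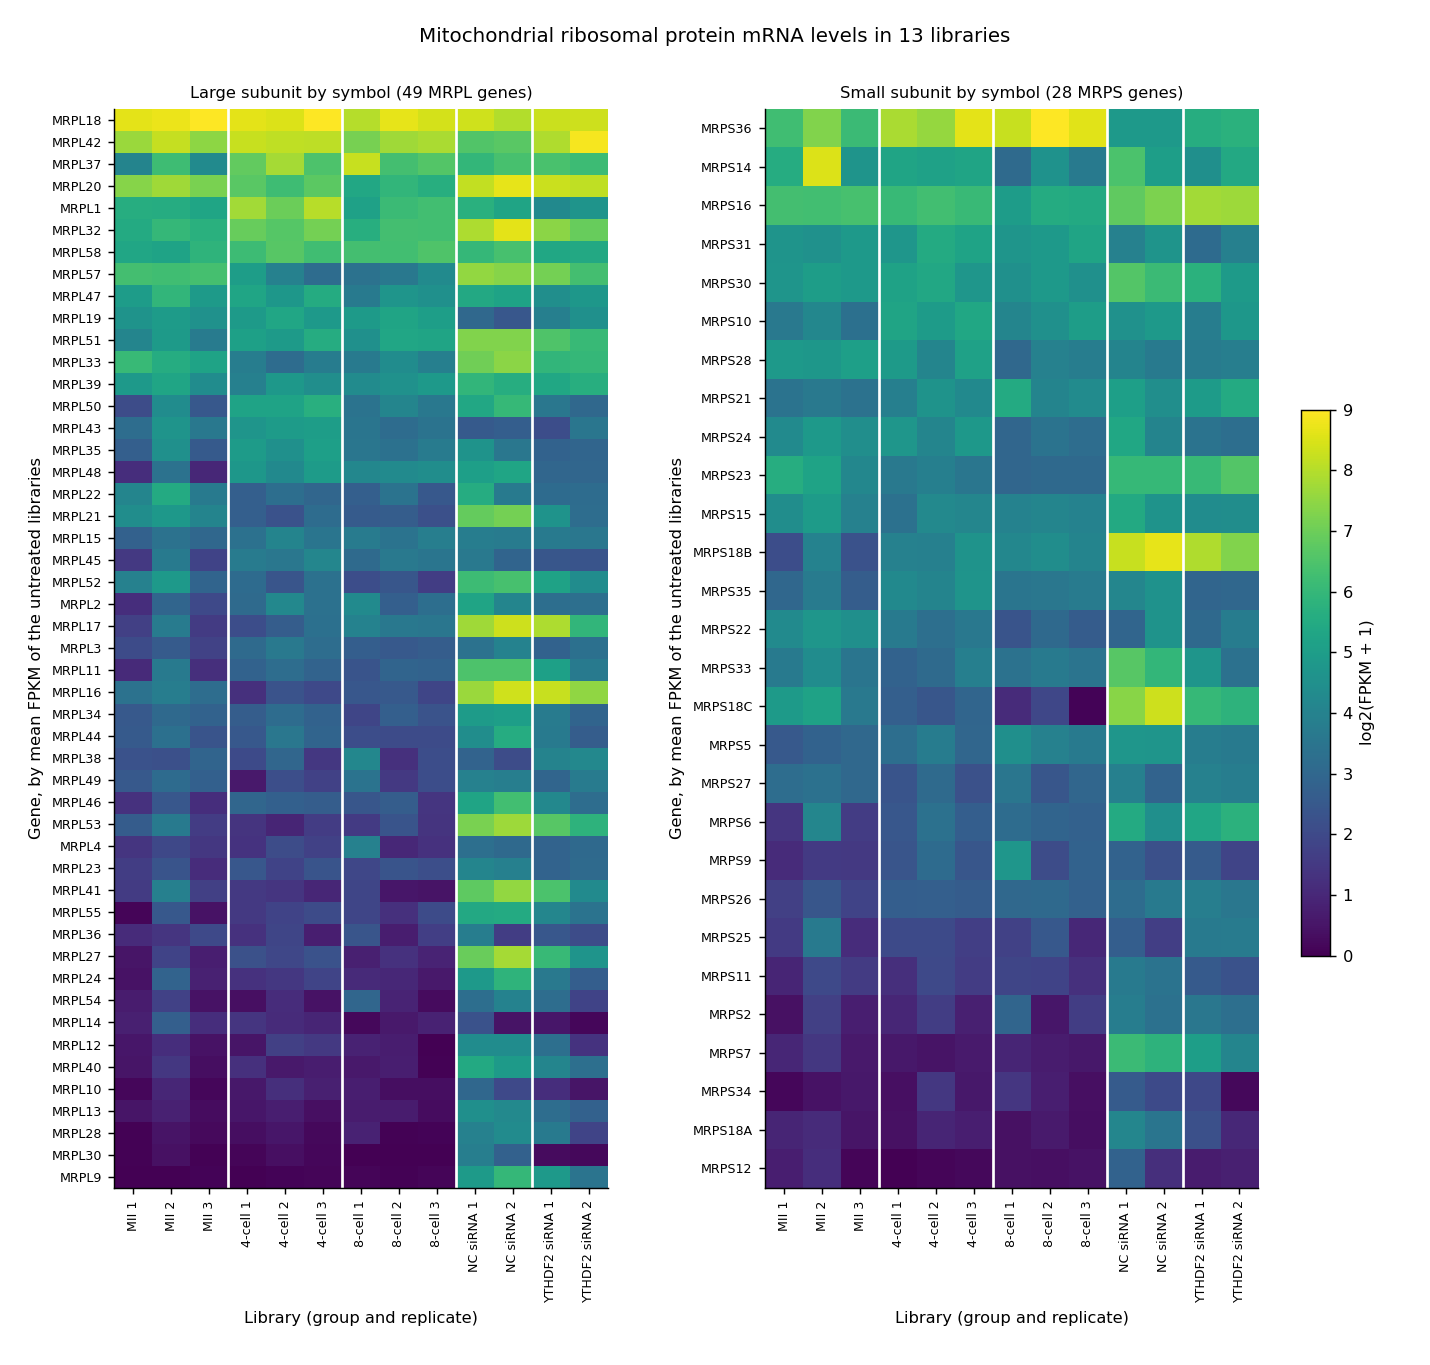
Level of each mitochondrial ribosomal protein mRNA as log2(FPKM + 1), with genes in rows by subunit and the 13 libraries in columns, white lines separating MII, 4-cell, 8-cell, NC siRNA and YTHDF2 siRNA libraries. In the untreated libraries rows range from 590.1 FPKM (MRPS36 in 8-cell replicate 2) to 0, and MII replicate 2 is brighter than the other MII libraries in many rows.

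The median level of the 77 members was 4.77, 12.2 and 5.28 FPKM in the MII libraries, 6.03, 8.39 and 8.06 FPKM at the 4-cell stage and 7.61, 6.48 and 6.11 FPKM at the 8-cell stage. The groups overlapped. MII replicate 2 stood apart from the other MII libraries. It was the highest MII library for 54 of the 66 tested members, 81.8%, against 47.2% of all 9090 genes tested, and lay more than 2-fold above each of the other MII libraries for 22 members, 33.3%, against 5.95% of all genes. Its cumulus marker sum of 61.7 FPKM lay between those of the other MII libraries, 58.1 and 75.7 FPKM, and its total of 35256822 fragments lay between theirs. Its oocyte and cleavage embryo marker sum of 3832 FPKM was the highest in MII, above 2803 and 3251 FPKM, with ZP3, a zona pellucida protein, at 211 FPKM against 52.7 and 64.3 FPKM. The 8-cell replicate 1 lay more than 2-fold above both other 8-cell libraries for 10 members, 15.2%, close to the 16.2% of all genes. Comparisons with MII are therefore given with and without MII replicate 2.

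The small subunit genes had the higher median in every untreated library and the large subunit genes in 3 of the 4 injected libraries. On the log2(FPKM + 1) scale the large subunit median minus the small subunit median was -1.06, -0.38 and -0.84 in MII, -0.57, -0.39 and -0.60 at 4-cell and -0.16, -0.59 and -0.83 at 8-cell. The stages overlapped in this measure. It was 0.59 and 0.68 in the NC siRNA libraries and 0.17 and -0.36 in the YTHDF2 siRNA libraries, which did not overlap. The injected libraries belong to another experiment and were scaled by themselves, and the 2 experiments were not tested against each other.

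**Figure D2:**
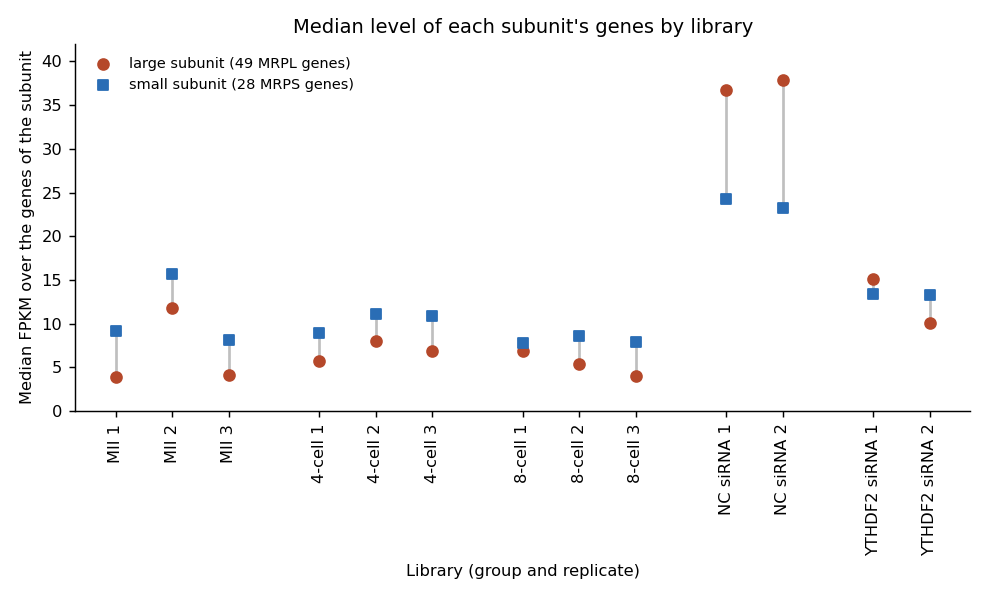
Median FPKM of the 49 large subunit (circles) and 28 small subunit genes (squares) in each library, with a grey line joining the values of 1 library. The squares lie above the circles in all 9 untreated libraries, and the circles fall from 36.8 and 37.9 FPKM in the NC siRNA libraries to 15.1 and 10.1 FPKM in the YTHDF2 siRNA libraries.

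Between stages, genes were called by the rule of the study, here applied to limma on log2(FPKM + 1), which asks for over 2-fold at an unadjusted p under 0.05, and counts with the Benjamini-Hochberg adjusted p are given beside. The 66 members that passed the filter had to reach a mean of 1 FPKM over the 9 untreated libraries, and no count below speaks for the other 11. At the 4-cell stage 16 of 66 members were called higher than in MII oocytes, 24.2%, against 16.7% of all genes tested, and 9 were called lower, 13.6%, against 6.06%. With the adjusted p these were 14 and 7 members, against 15.4% and 5.09% of all genes. The median change of the members was 0.22, against 0.29 for all genes. With another scaling of the libraries the direction of the members as a set turned. Their median was -0.00 after median-ratio rescaling, which moved the median of all genes to 0.06, and -0.22 after equal summed FPKM, which moved it to -0.14. The calls were then 11 higher and 13 lower, against 10.4% and 10.1% of all genes, and 5 higher and 16 lower, against 6.74% and 12.9%. Relative to the median of all genes the members lay at -0.07, -0.06 and -0.08 under the 3 scalings. Without MII replicate 2 the calls were 21 higher and 6 lower, against 19.2% and 4.86% of all genes, and the members' median of 0.53 lay 0.18 above that of all genes, 0.35, so that the sign relative to all genes turned. Without MII replicate 1 they were 10 and 9, against 15% and 5.26%, with a median of -0.00, which is -0.27 relative to all genes. MRPL genes made up 12 of the 16 higher and 7 of the 9 lower calls, of 42 tested, and the medians of the large and the small subunit were 0.27 and 0.15.

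At the 8-cell stage, compared with the same MII libraries, 10 of 66 members were called higher, 15.2%, against 19.8% of all genes, and 14 were called lower, 21.2%, against 8.14%. By the adjusted p there were 8 and 13, against 18.5% and 7.58%. The median of the members was 0.07 and that of all genes 0.37. Rescaling by the median ratio or to an equal sum turned the members' median to -0.19 or -0.21, with the median of all genes at 0.05 or 0.02, and gave 6 higher and 18 lower, against 12.5% and 13% of all genes, or 5 higher and 19 lower, against 11.6% and 13.3%. Relative to all genes it was -0.30, -0.24 and -0.23. Leaving out MII replicate 2 gave 17 higher and 14 lower, against 22.6% and 7.2% of all genes, with a median of 0.36, against 0.43. Leaving out MII replicate 1 turned the median to -0.12, and leaving out 8-cell replicate 1 to -0.14. Of 42 MRPL genes 4 were called higher and 8 lower, and of 24 MRPS genes 6 and 6, and the subunit medians were 0.07 and -0.04. The sign of the difference between the subunits turned in either comparison with MII when libraries were left out, with ranges of -0.03 to 0.22 and -0.06 to 0.16.

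From the 4-cell to the 8-cell stage no member was called higher and 8 were called lower, 12.1%, against 4.55% of all genes higher and 4.28% lower. By the unadjusted p from limma alone, with no minimum change, 1 member was higher and 17 were lower, against 10.8% and 13.5% of all genes, and with voom on the recovered fragments these were 0 and 18, against 10.8% and 13.3%. By the adjusted p and more than 2-fold, 0 were higher and 3 lower, against 2.29% and 3.17% of all genes. The median of the members was -0.24 and stayed below 0 under either rescaling, at -0.31 and -0.14, while that of all genes was 0.07. The large subunit median was -0.27 and that of the small subunit -0.06. The cumulus and granulosa cell markers, 10 of 12 listed, summed to 69.7 to 76.2 FPKM at 4-cell and 99.3 to 151 FPKM at 8-cell, without overlap. In MII the sums were 58.1 to 75.7 FPKM. By gene, HAS2 did not overlap between 4-cell and 8-cell, while STAR, VCAN, TNFAIP6, GREM1 and CYP19A1 did. PTX3, FSHR, INHBA and FST were near 0 at both stages. STAR reached 95.6 FPKM in 8-cell replicate 1. The part of these markers in the result was not tested. Without 8-cell replicate 2 there were 11 lower and 2 higher, against 5.25% and 8.97% of all genes. The changes ranged from -1.72 to 1.01, whereas those against MII ranged from -2.25 to 2.80 at 4-cell and from -3.54 to 2.43 at 8-cell, with calls in both directions.

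**Figure D3:**
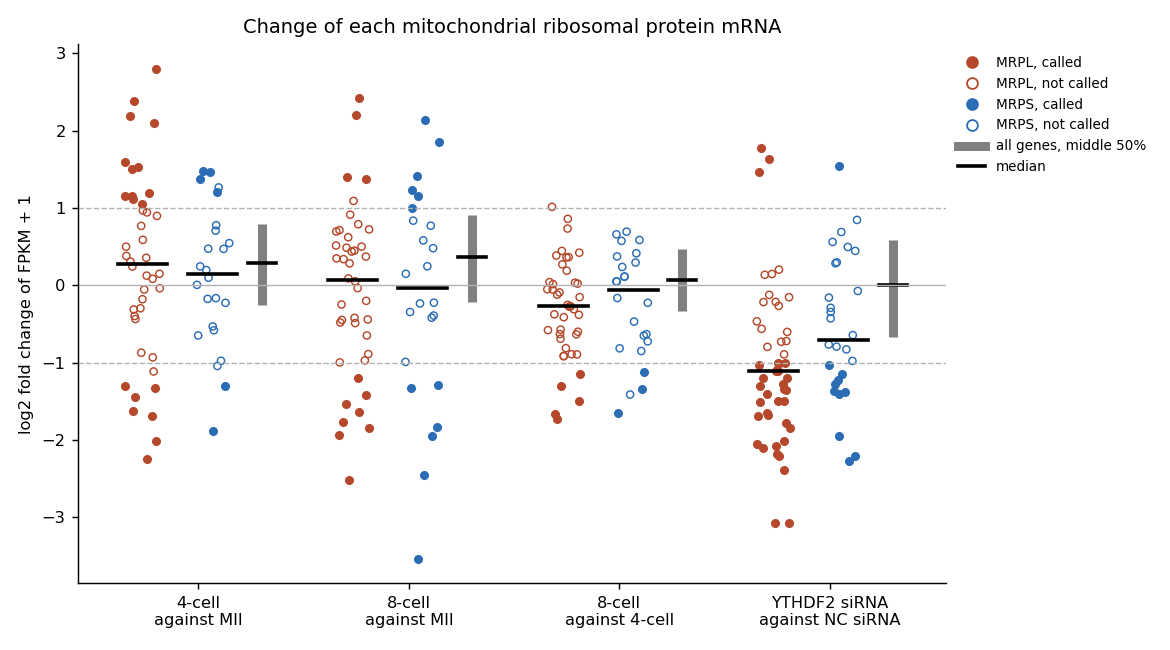
log2 fold change of FPKM + 1 of each tested member, by comparison and subunit, with filled points for members called at an unadjusted p under 0.05 and over 2-fold. Black lines are medians and grey bars the middle 50% of all genes tested. Points spread to both sides of 0 at the stages, where the members' median against MII turns below 0 when libraries are rescaled, and lie mostly below 0 in the knockdown, with medians of -1.10 and -0.71 for the large and small subunit.

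A group of members was called higher at both embryo stages than in MII oocytes, namely MRPL2, MRPL37, MRPL48, MRPS18B and MRPS36. MRPL48, a mitochondria-specific protein of the central protuberance, had 1.29, 9.42 and 0.979 FPKM in MII, 26.4, 18.3 and 29.4 FPKM at 4-cell and 16.8, 18.6 and 20.06 FPKM at 8-cell. All embryo libraries lay above all MII libraries, with log2 fold changes of 2.80 (SE 0.54, adjusted p = 0.0044 from limma) and 2.43 (SE 0.54, adjusted p = 0.0070). MRPL37 rose from 15.7, 72.1 and 18.9 FPKM to 115, 219 and 88.9 FPKM at 4-cell, a log2 fold change of 2.19 (SE 0.65, adjusted p = 0.031), and had 305, 79.2 and 96.6 FPKM at 8-cell, 2.21 (SE 0.65, adjusted p = 0.025). MRPS36 rose from 74.5, 156 and 68.6 FPKM to 234, 190.5 and 391 FPKM and then to 303, 590.1 and 385 FPKM, without overlap of MII and either stage. Its log2 fold changes were 1.47 (SE 0.38, adjusted p = 0.017) and 2.13 (SE 0.38, adjusted p = 0.0023), and it was the highest MRPS gene at both embryo stages. MRPL2, at the peptidyl transferase region of the large subunit, had 1.27, 6.58 and 2.97 FPKM in MII, 7.64, 17.2 and 9.36 FPKM at 4-cell and 18.6, 5.69 and 8.63 FPKM at 8-cell, and the adjusted p of its changes was 0.050 and 0.059. The rises of MRPL37 and MRPL48 at both stages, and those of MRPS36 and MRPS18B at the 8-cell stage, kept their calls under both rescalings. The rise of MRPL2 at either stage and those of MRPS36 and MRPS18B at the 4-cell stage kept theirs under 1 of the 2.

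Another pattern was a peak at the 4-cell stage. Of 11 members called higher at the 4-cell stage alone, MRPL1, MRPL27, MRPL35, MRPL43 and MRPL50 were also called lower from the 4-cell to the 8-cell stage. MRPL1 forms the mobile stalk by which the ribosome releases spent tRNA. It had 47.8, 46.3 and 38.5 FPKM in MII, 216, 125 and 258 FPKM at 4-cell and 34.9, 69.98 and 76.2 FPKM at 8-cell. The 4-cell libraries lay above all others, with log2 fold changes of 2.1 (SE 0.34, adjusted p = 0.0018) from MII and -1.72 (SE 0.34, adjusted p = 0.018) to the 8-cell stage. MRPL50, which is mitochondria-specific, had 3.28, 19.9 and 4.56 FPKM in MII, 36.2, 36.3 and 49.9 FPKM at 4-cell and 9.66, 16.1 and 11.3 FPKM at 8-cell. Its rise was 2.38 (SE 0.51, adjusted p = 0.0073), whereas its decrease, -1.66, had an adjusted p of 0.081. MRPL43, with 24.7, 29.4 and 31.3 FPKM at 4-cell and 10.4, 8.15 and 9.73 FPKM at 8-cell, decreased by 1.5 on the log2 scale (SE 0.33, adjusted p = 0.027). MRPL35 had 29.8, 21.8 and 33.1 FPKM at 4-cell, above 5.56, 21.7 and 4.88 FPKM in MII by a log2 fold change of 1.59 (adjusted p = 0.027), and 10.6, 9.15 and 12.4 FPKM at 8-cell. The decrease of MRPL35 to the 8-cell stage, -1.31, had an adjusted p of 0.11 from limma. That call held in 7 of 9 fits that left out 1 library. MRPL27, near the peptidyl transferase centre, went from 0.420, 2.53 and 0.677 FPKM to 3.70, 2.79 and 3.81 FPKM and then 0.742, 1.41 and 0.853 FPKM. The rises of MRPL27 and MRPL43 lost their calls under either rescaling, and the decreases of all 5 kept theirs.

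MRPS10, a homolog of a bacterial small subunit head protein, also rose at the 4-cell stage, from 11.6, 16.8 and 8.98 FPKM to 37.3, 29.3 and 39.9 FPKM, a log2 fold change of 1.47 (SE 0.29, adjusted p = 0.0047). The other members called higher at this stage alone were MRPL3, MRPL32, MRPL45, MRPL46 and MRPS35, with log2 fold changes of 1.15 to 1.5, of which MRPL45, the protein that ties the ribosome to the inner membrane, overlapped with MII. None of MRPL3, MRPL32, MRPL46 and MRPS35 kept its call under either rescaling, and MRPS10 and MRPL45 kept theirs under 1 of the 2. At the 8-cell stage alone MRPS5, MRPS9, MRPS21, MRPS26 and MRPL17 were called higher. MRPS5, which lines the mRNA entry side of the small subunit, had 4.77, 6.08 and 7.16 FPKM in MII and 21.3, 14.6 and 11.6 FPKM at 8-cell, without overlap, and its log2 fold change was 1.24 (SE 0.29, adjusted p = 0.0092). MRPS9 had 1.13, 1.9 and 1.83 FPKM in MII and 25.7, 3.30 and 6.19 FPKM at 8-cell, so that 8-cell replicate 1 was far above the others, and its log2 fold change was 1.85 (adjusted p = 0.030), or 1.10 without that library. For MRPS21 the log2 fold change was 1.15 (adjusted p = 0.032) and for MRPS26 it was 1.0 (adjusted p = 0.0095). MRPL17 overlapped with MII and its change was 1.37 (adjusted p = 0.077). With 1 library left out the calls of MRPS26 and MRPL17 held in 5 and 4 of 9 fits. The rise of MRPS9 kept its call under both rescalings, and those of MRPS5, MRPS21, MRPS26 and MRPL17 lost theirs under either.

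A further group was lower at both embryo stages than in MII, comprising MRPL16, MRPL21, MRPL22, MRPL33, MRPL57, MRPS18C and MRPS23. MRPL57, a mitochondria-specific protein, had 78.7, 73.8 and 80.6 FPKM in MII, 31.2, 14.6 and 8.06 FPKM at 4-cell and 9.59, 11.1 and 19.0 FPKM at 8-cell. MII was above every embryo library, with log2 fold changes of -2.25 (SE 0.42, adjusted p = 0.0037) and -2.52 (SE 0.42, adjusted p = 0.0015). MRPS18C, the homolog of bacterial S18, had 29.2, 35.3 and 11.4 FPKM in MII, 5.57, 4.36 and 6.6 FPKM at 4-cell and 1.15, 2.77 and 0.0644 FPKM at 8-cell, the last from 1 fragment. It was the only member called in all 3 comparisons of stages, decreasing by 1.89 (adjusted p = 0.019), 3.54 (adjusted p = 0.00075) and 1.65 (adjusted p = 0.078) on the log2 scale. MRPL33 had 65.9, 46.1 and 36.3 FPKM in MII, 13.1, 8.15 and 12.7 FPKM at 4-cell and 11.7, 19.96 and 13.7 FPKM at 8-cell, with changes of -2.02 (adjusted p = 0.0011) and -1.64 (adjusted p = 0.0021). MRPL21 went from 20.3, 26.7 and 15.7 FPKM to 5.66, 3.86 and 8.11 FPKM and 5.01, 5.36 and 3.56 FPKM, changes of -1.69 (adjusted p = 0.0026) and -1.94 (adjusted p = 0.0010). MRPL16, which joins the large subunit late in assembly, had 9.59, 13.1 and 8.29 FPKM in MII and 1.40, 3.92 and 3.00 FPKM at 4-cell, a change of -1.63 (adjusted p = 0.0049). For MRPL33, MRPL21 and MRPL16 every MII library lay above every embryo library. The decreases of MRPL22, at the exit tunnel, and of MRPS23 were -1.45 (adjusted p = 0.035) and -1.3 (adjusted p = 0.015) at the 4-cell stage. Each of these 2 calls held in 8 of 9 fits that left out 1 library. All 9 members called lower at the 4-cell stage, these 7 with MRPL49 and MRPL53, kept their calls under both rescalings. The calls of MRPL49 (-1.31, adjusted p = 0.087) and MRPL53 (-1.33, adjusted p = 0.068) held in 5 of 9 fits that left out 1 library.

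Some members were called lower than in MII at the 8-cell stage and not at the 4-cell stage. MRPL20 had 163, 211 and 144 FPKM in MII, 104, 73.4 and 104 FPKM at 4-cell and 41.3, 59.5 and 48.9 FPKM at 8-cell, where all stages lay apart, and its change from MII to 8-cell was -1.77 (SE 0.22, adjusted p = 0.00036). MRPS22, a mitochondria-specific small subunit protein, went from 18.6, 25.6 and 21.6 FPKM in MII to 12.1, 8.69 and 11.1 FPKM and 4.11, 7.46 and 5.08 FPKM, likewise in 3 separate steps, a change of -1.83 (SE 0.24, adjusted p = 0.00053). Both already lay below MII at the 4-cell stage, by less than 2-fold, at -0.87 (adjusted p = 0.015) for MRPL20 and -0.98 (adjusted p = 0.014) for MRPS22, and were called lower there under both rescalings. MRPS24 and MRPS28 were close to MII at the 4-cell stage and lower thereafter. MRPS24 had 18.9, 27.9 and 20.7 FPKM in MII, 25.3, 16.2 and 27.0 FPKM at 4-cell and 6.82, 9.77 and 8.28 FPKM at 8-cell, with changes of -1.33 from MII (adjusted p = 0.0029) and -1.34 from 4-cell (adjusted p = 0.015). MRPS28 decreased by 1.29 (adjusted p = 0.012) from MII and by 1.12 (adjusted p = 0.063) from the 4-cell stage. MRPL52 decreased by 1.85 from MII (adjusted p = 0.013). MRPS14 was called lower by 2.46 (SE 0.82, adjusted p = 0.041), but its MII values were 46.6, 367 and 24.5 FPKM and the change was -1.32 without MII replicate 2. MRPL41 (-1.43, adjusted p = 0.10) overlapped with MII, and its call held in 3 of 9 fits that left out 1 library, with a change of -0.66 without MII replicate 2. Of the called members, 14 of 25 at 4-cell and 19 of 24 at 8-cell against MII, and 6 of 8 from 4-cell to 8-cell, kept their calls whichever library was left out.

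**Figure D4:**
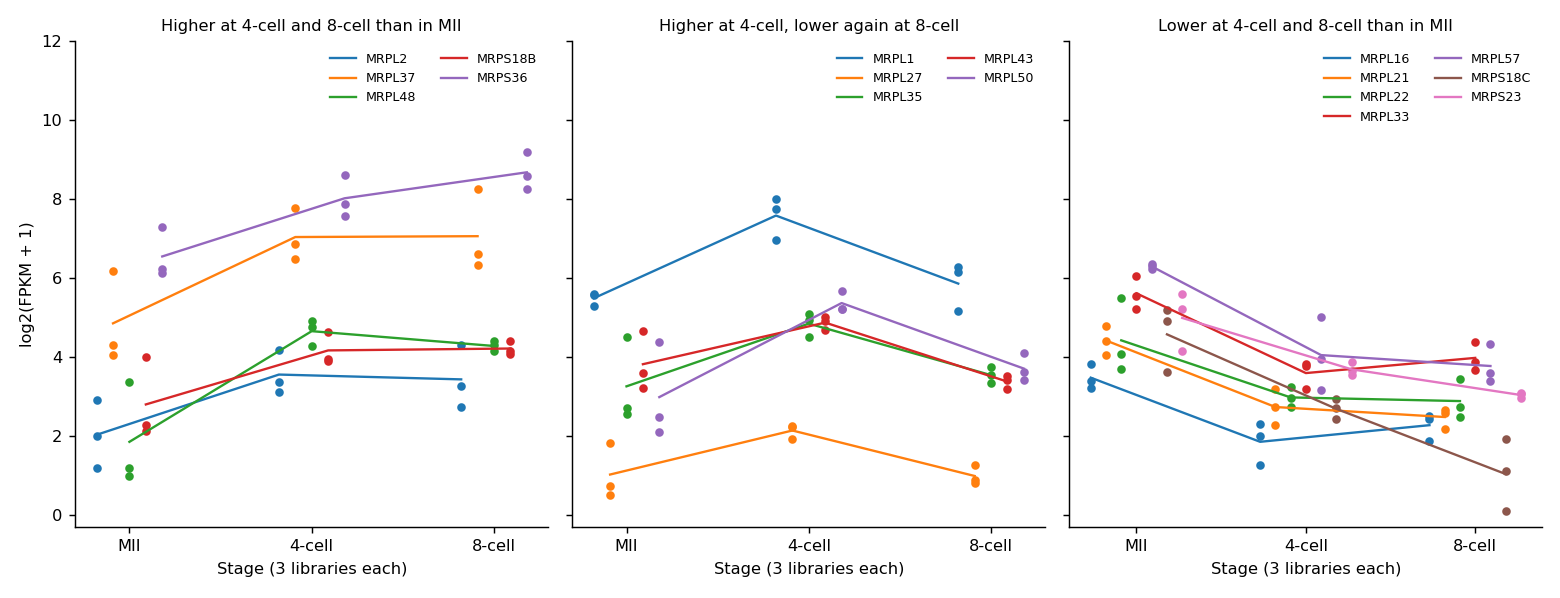
log2(FPKM + 1) of named members by stage, a point for each of 3 libraries (set side by side by gene) and a line through the means, for members called higher at both embryo stages (left), higher at 4-cell and lower again at 8-cell (middle) and lower at both embryo stages (right). MRPL1 peaks at 125 to 258 FPKM at the 4-cell stage, while MRPS18C falls at each step to 0.0644 to 2.77 FPKM.

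The 3 MRPS18 paralogs, which occupy different sites of the ribosome, differed in their course. MRPS18B had 3.38, 14.9 and 3.85 FPKM in MII, 14.5, 14 and 23.9 FPKM at 4-cell and 16.9, 20.3 and 15.9 FPKM at 8-cell, with log2 fold changes of 1.37 (adjusted p = 0.045, the groups overlapping) and 1.42 (adjusted p = 0.034). MRPS18C decreased at each step, as above. MRPS18A stayed between 0.251 and 1.15 FPKM in all untreated libraries and was not tested between stages. MRPS30 lay between 22.0 and 41.4 FPKM throughout and was called in no comparison of stages. Other tested members called in no comparison of stages included MRPL18, MRPL42, MRPS16 and MRPL58, the release factor homolog of the large subunit. MRPL58 had 39.0, 36.3 and 56.7 FPKM in MII, 70.2, 101 and 75.2 FPKM at 4-cell and 79.0, 76.8 and 91.2 FPKM at 8-cell, below a 2-fold change at 0.90 and 0.91 on the log2 scale (adjusted p = 0.012 and 0.0092).

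The knockdown reduced its target. YTHDF2 had 112 and 159 FPKM in the NC siRNA libraries and 8.07 and 4.47 FPKM in the YTHDF2 siRNA libraries, which is -4.25 on the log2 scale (SE 0.43, adjusted p = 0.00037 from limma). In these 8-cell embryos the mRNAs of mitochondrial ribosomal proteins were predominantly lower after YTHDF2 siRNA. All 77 members passed the filter in this fit, a mean of 1 FPKM over the 4 libraries. MRPL30, MRPL10, MRPS12 and MRPL14 had a mean below 1 FPKM with YTHDF2 siRNA and so passed only through their NC siRNA level, and the first 3 of these are among the lower calls below. Of the 77 members, 39 were called lower, 50.6%, against 15.3% of all 11004 genes tested, and 4 were called higher, 5.19%, against 9.48%. With the adjusted p 17 were lower and 2 higher, against 5.92% and 2.06% of all genes. This count of 17 was 10 after median-ratio rescaling, 11 with the replicate block and 5 to 31 when any 1 library was left out, with 5 without YTHDF2 siRNA replicate 2 and 31 without YTHDF2 siRNA replicate 1. With no filter on low values no gene at all passed the adjusted p of limma, while 33 members were lower and 4 higher by the unadjusted p, against 7.46% and 4.44% of all genes. The median change of the members was -1.02, that of all genes 0.01, and 63 of 77 changes lay below 0. The median level of the members was 32.7 and 27.3 FPKM in the NC siRNA libraries and 13.9 and 11.7 FPKM in the YTHDF2 siRNA libraries, without overlap. With 2 libraries per group, the calls depended on single libraries, and 28 to 42 members were lower when any 1 was left out, against 10.2% to 18.9% of all genes, with medians of -0.84 to -1.16. Of the 43 called members 22 kept their calls whichever library was left out. Under the rescalings 38 and 34 were called lower, against 14.9% and 14.6% of all genes, with medians of -1.01 and -0.99.

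The large subunit held 29 of the lower calls, of 49 genes, and 3 of the higher calls, and the small subunit 10 and 1, of 28 genes. The medians were -1.10 and -0.71. With MRPS18A and MRPS30 counted to the large subunit and MRPS36 left out, 31 of 51 and 8 of 25 were lower. The difference of the subunit medians was -0.40 and ranged from -0.22 to -0.87 when 1 library was left out, so it kept its sign but not its size, and no test of it was made. Of the bacterial homologs 23 of 44 were lower and 1 was higher, and of the mitochondria-specific proteins 15 of 31 were lower and 3 were higher, with medians of -1.06 and -0.89. The groups were not tested against each other.

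The furthest decreases were of MRPL30 and MRPL21. MRPL30, like MRPL10 and MRPS12 below, passed the filter only through its NC siRNA level, which favoured a lower call. MRPL30 had 13.3 and 5.87 FPKM with NC siRNA and 0.210 and 0.150 FPKM with YTHDF2 siRNA, a log2 fold change of -3.07 (SE 0.46, adjusted p = 0.0031). MRPL21 decreased from 116 and 138 FPKM to 23.4 and 8.41 FPKM, by 3.07 (SE 0.47, adjusted p = 0.0036). MRPL50 went from 40.6 and 64.3 FPKM to 11 and 7.31 FPKM, MRPL48 from 32.7 and 37.9 FPKM to 6.79 and 6.88 FPKM, and MRPL24, at the exit tunnel, from 27.6 and 57.5 FPKM to 11.5 and 5.5 FPKM, with changes of -2.38, -2.21 and -2.18 (adjusted p = 0.0079, 0.0085 and 0.018). The next in the large subunit were MRPL11, at the base of the stalk, and MRPL12, in the stalk, followed by MRPL46 and MRPL27 with decreases of 2.05 and 2.01 on the log2 scale. MRPL11 had 89.7 and 88.5 FPKM with NC siRNA against 33.8 and 11.7 FPKM, a change of -2.1 (adjusted p = 0.020). MRPL12 had 19.9 and 19.6 FPKM against 8.66 and 1.49 FPKM, a change of -2.08 (adjusted p = 0.035). Over the alternative fits the change ranged from -2.83 to -1.37 for MRPL11 and from -3.06 to -1.10 for MRPL12. MRPL10, whose decrease was smaller, had 7.0 and 3.01 FPKM against 1.26 and 0.430 FPKM, -1.66 (adjusted p = 0.043). In the small subunit the furthest decrease was that of MRPS33. It had 99.5 and 60.6 FPKM against 24.9 and 9.27 FPKM, -2.27 (SE 0.49, adjusted p = 0.016). MRPS7, the homolog of the bacterial protein on which the head of the small subunit forms, had 68.5 and 55.7 FPKM against 32.0 and 16.1 FPKM, -1.40 (adjusted p = 0.060), and MRPS12 had 6.14 and 1.3 FPKM against 0.610 and 0.75 FPKM, -1.27 (adjusted p = 0.12). The NC siRNA and YTHDF2 siRNA libraries did not overlap for any of these genes. Lack of overlap was part of the rule for naming members, and its share over all genes was not determined.

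Of the 3 MRPS18 paralogs, MRPS18A and MRPS18C were called lower after YTHDF2 siRNA and MRPS18B was not. MRPS18A decreased from 16.6 and 10.2 FPKM to 3.57 and 1.01 FPKM (-2.21, adjusted p = 0.017) and MRPS18C from 168 and 317 FPKM to 63.7 and 55.0 FPKM (-1.95, adjusted p = 0.016). MRPS18B had 299 and 409 FPKM against 245 and 157 FPKM, a change of -0.83 that was not called (adjusted p = 0.17). MRPS30 had 96.2 and 68.8 FPKM against 52.9 and 29.0 FPKM (-1.03, adjusted p = 0.13). MRPS30 was thus called lower by the unadjusted p, but did not keep this call under both rescalings. MRPS36 was not called, with 27.9 and 27.3 FPKM against 47.8 and 53.1 FPKM (0.85, adjusted p = 0.17).

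Called higher after YTHDF2 siRNA were MRPL42, MRPL38, MRPS25 and MRPL19. MRPL42 had 93.0 and 102 FPKM with NC siRNA and 240.3 and 473 FPKM with YTHDF2 siRNA, a log2 fold change of 1.78 (SE 0.41, adjusted p = 0.022). MRPL38, of the central protuberance, had 6.29 and 3.22 FPKM against 15.1 and 17.5 FPKM, 1.64 (SE 0.44, adjusted p = 0.037). MRPS25 went from 5.43 and 2.17 FPKM to 11.7 and 12.5 FPKM (1.54, adjusted p = 0.053) and MRPL19 from 7.31 and 4.44 FPKM to 13.9 and 22.1 FPKM (1.46, adjusted p = 0.056). None of the 4 was called between stages. Among members not called, MRPL18 had 322 and 246 FPKM against 306 and 316 FPKM, a change of 0.15 (SE 0.37), and MRPL37 had 61.0 and 81.7 FPKM against 84.4 and 71.5 FPKM, 0.14 (SE 0.40). For both the groups overlapped.

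**Figure D5:**
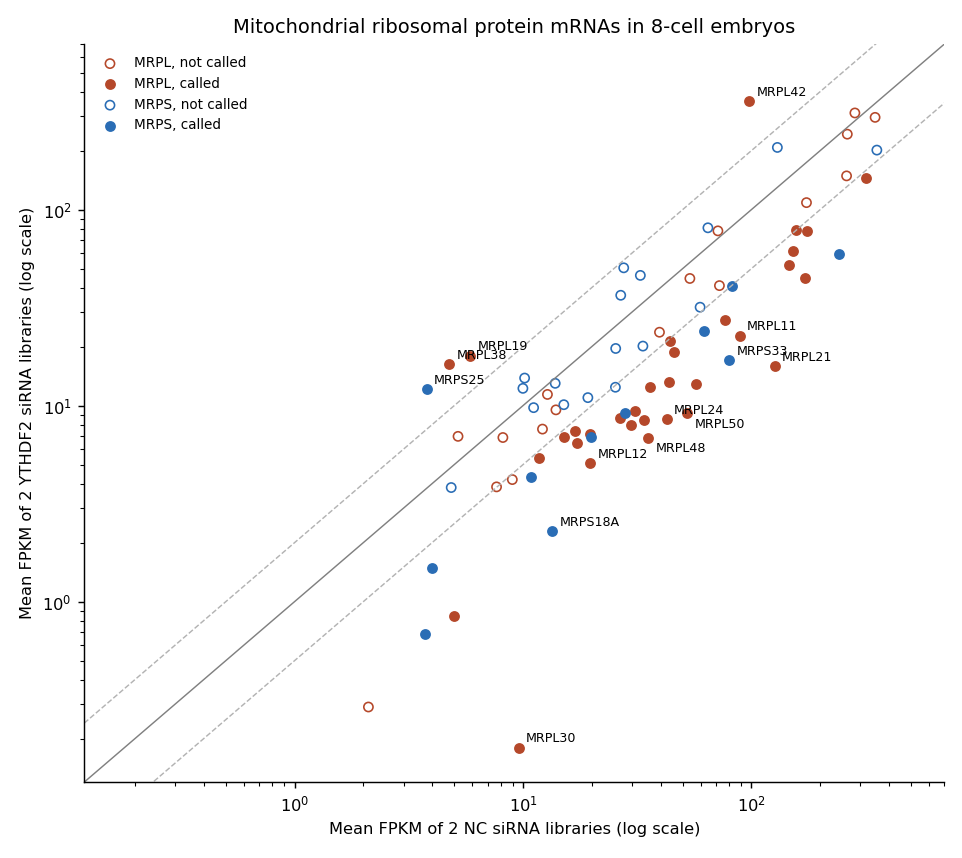
Mean FPKM of each member in 2 NC siRNA (x) and 2 YTHDF2 siRNA libraries (y) on log scales, with the line of equal levels and dashed lines at a 2-fold difference. Filled points were called at an unadjusted p under 0.05 and over 2-fold, and 39 of them lie below the line and 4 above it.

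Some marker sums moved with the knockdown. The oocyte and cleavage embryo markers summed to 3036 and 2040 FPKM with NC siRNA and 4204 and 4408 FPKM with YTHDF2 siRNA, and the cumulus and granulosa cell markers to 56.8 and 45.7 FPKM against 94.3 and 84.7 FPKM, with FSHR at 0 in all 4 libraries. The summed blood markers, 2 of 4 listed, went the other way, from 2.84 and 6.76 FPKM to 0.61 and 0.65 FPKM. That fall was of CD74 alone, from 2.26 and 6.36 FPKM to 0.07 and 0 FPKM. PTPRC overlapped, with 0.58 and 0.4 FPKM against 0.54 and 0.65 FPKM. These 3 sums did not overlap between the groups. The sperm marker sums overlapped, with 21.7 and 12.7 FPKM against 27.1 and 5.13 FPKM. The part of the markers in the result was not tested. The mRNAs of the members are short, with a median exon length of 1164 bases against 2690 bases over the genes tested. Of the 1686 genes in the members' middle range of 857 to 1575 bases, 20.7% were lower in the knockdown and the median change was -0.21, while 20 of the 39 members in that range were lower with a median of -1.10.

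The 39 members called lower in the knockdown had a median of 3.25 FPKM at the untreated 8-cell stage, against 12.1 FPKM for the 34 members not called in it. In the NC siRNA libraries the medians of the same groups were 36 and 26.1 FPKM. The NC siRNA levels enter the call, whereas the untreated levels do not. Of the 28 of the 39 that were tested at the stages, the median change from 4-cell to 8-cell was -0.42, against 0.03 for the members not called. Across the 66 members the knockdown and stage changes had Pearson correlations of -0.02, 0.12 and 0.26 (4-cell against MII, 8-cell against MII and 8-cell against 4-cell), given as a description over genes that share libraries. Of the 8 members called lower from the 4-cell to the 8-cell stage, 6 were lower in the knockdown, and of the 14 lower from MII to 8-cell, 7 were. Of the 16 higher at the 4-cell stage, 9 were lower in the knockdown, and of the 9 lower there, 5 were. Of the 10 higher at the 8-cell stage than in MII, 2 were lower in the knockdown. None of all these was higher in it. These counts stand beside 28 of all 66 members tested at the stages, 42.4%, and no test of the overlap was made.

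The 2 sets of 8-cell libraries differed in level, which is described here without a test because they were normalized separately. For 53 of the 77 members, 68.8%, both NC siRNA libraries lay above all 3 untreated 8-cell libraries, against 29.5% of all 18138 names. MRPL9 had 0.09, 0.0444 and 0.0805 FPKM in untreated 8-cell embryos and 29.3 and 62.4 FPKM with NC siRNA. MRPS7 had 0.904, 0.604 and 0.5 FPKM against 68.5 and 55.7 FPKM. The reverse was seen for 5 members, 6.49%, against 23.9% of all names, and MRPS36 was among them with 303, 590.1 and 385 FPKM against 27.9 and 27.3 FPKM. With YTHDF2 siRNA 44 members, 57.1%, lay above all untreated 8-cell libraries, against 24.2% of all names. The median of the members after YTHDF2 siRNA thus lay between that with NC siRNA and that of the untreated 8-cell embryos.

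Other genes of mitochondrial translation were set beside the members by lists of textbook membership, whose counts stand against the shares of all genes given for each comparison above. Of the 5 ribosomal proteins that lack an MRP symbol and were in the tables, PTCD3, a small subunit protein, rose at the 4-cell stage (1.35, adjusted p = 0.0015), and CHCHD1, also of the small subunit, had 82.6 FPKM in MII, 81.6 FPKM at 4-cell and 29.7 FPKM at 8-cell on average, lower by 1.46 from MII (adjusted p = 0.0031) and by 1.42 from 4-cell (adjusted p = 0.018). In the knockdown AURKAIP1, GADD45GIP1 and PTCD3 were called lower by 1.16, 1.19 and 1.09, all with an adjusted p over 0.05, and none of the 5 was higher. Among 12 translation factors OXA1L, the insertase for new mitochondrial proteins, was higher at 4-cell (1.39, adjusted p = 0.014), the initiation factor MTIF2 lower at 8-cell than in MII (-1.06, adjusted p = 0.0028) and the elongation factor GFM1 lower from 4-cell to 8-cell (-1.09, adjusted p = 0.013). Of 11 translation factors tested in the knockdown 3 were lower and 1 higher. They were the elongation factors TUFM (20.97 to 5.67 FPKM on average, -1.75, adjusted p = 0.030) and GFM1 (-1.3, adjusted p = 0.068) and the release factor MTRF1L (-1.02, adjusted p = 0.14), with TSFM higher (1.44, adjusted p = 0.060).

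Of 17 genes of ribosome assembly and rRNA modification, 0 were lower and 4 higher at the 8-cell stage than in MII, against 8.14% and 19.8% of all genes, and after either rescaling 2 were lower and 2 higher. These were FASTKD2 (1.34, adjusted p = 0.00047), MALSU1 (1.63, adjusted p = 0.011), RPUSD3 (1.3, adjusted p = 0.025) and YBEY, which was chosen after its values were seen (1.17, adjusted p = 0.010). FASTKD2 and YBEY lost their calls under either rescaling. MALSU1, which keeps the large subunit from joining too early, had a mean of 2.19 FPKM in MII, 1.32 FPKM at 4-cell and 8.90 FPKM at 8-cell. The rRNA methyltransferase TFB1M and MTERF4 were lower at 4-cell (-1.09, adjusted p = 0.023, and -1.03, adjusted p = 0.026). In the knockdown 8 of 22 were lower and 2 higher. The GTPase GTPBP10, which acts in large subunit maturation, decreased by 3.53 (adjusted p = 0.0023), METTL17 by 2.44 (adjusted p = 0.017) and TRUB2 by 1.82 (adjusted p = 0.022). TRUB2, at means of 4.7 against 0.64 FPKM, passed the filter only through its NC siRNA level. The higher ones were TFB1M (1.23, adjusted p = 0.080) and FASTKD2 (1.15, adjusted p = 0.16).

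Genes of mitochondrial transcription and RNA maintenance were lower in the knockdown in 8 of 16 cases, with 1 higher and a median of -1.24. LRPPRC, which stabilizes mitochondrial mRNAs with its partner SLIRP, decreased by 2.29 (adjusted p = 0.012), TFAM, which packages mitochondrial DNA, by 1.82 (adjusted p = 0.035) and the transcription factor TFB2M by 1.8 (adjusted p = 0.042), while FASTKD5 was called higher (1.14, adjusted p = 0.14). Between stages, LRPPRC was lower at 4-cell (-1.71, adjusted p = 0.0042) and at 8-cell (-1.24, adjusted p = 0.015) than in MII, and HSD17B10, a subunit of mitochondrial RNase P, was higher (1.19, adjusted p = 0.014, and 1.10, adjusted p = 0.017) but lost both calls under either rescaling. SLIRP was called lower at 8-cell than in MII (-2.12, adjusted p = 0.030) and than at 4-cell (-1.51, adjusted p = 0.20), and its groups overlapped. SUPV3L1, an RNA helicase, was lower from 4-cell to 8-cell (-1.10, adjusted p = 0.011). The mitochondrial aminoacyl-tRNA synthetases showed few calls, with 1 of 12 lower (HARS2, -1.45, adjusted p = 0.061) and 1 higher (CARS2, 1.27, adjusted p = 0.074) in the knockdown, and CARS2 higher (1.10, adjusted p = 0.036, lost under either rescaling) and FARS2 lower (-1.06, adjusted p = 0.024) at 8-cell than in MII.

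The proteins of the cytosolic ribosome, 73 genes of the shared names, were lower in 41 cases and higher in none in the knockdown, with a median of -1.15. Of these 73, RPL12, RPL22 and RPL9 were the furthest, with log2 fold changes of -2.81 (adjusted p = 0.0025), -2.56 (adjusted p = 0.0041) and -2.32 (adjusted p = 0.0070). Compared with MII, 20 were lower and 2 higher at 4-cell, with a median of -0.56, and 26 lower and 3 higher at 8-cell, with a median of -0.77. RPL35 (-3.08, adjusted p = 0.0082) and RPS19 (-2.70, adjusted p = 0.011) were furthest down at 4-cell, and RPL27 (-3.07, adjusted p = 0.00027) and RPS19 (-2.83, adjusted p = 0.0076) at 8-cell. RPL7 was called higher at both stages (1.49 and 1.40, adjusted p = 0.058 and 0.062). From 4-cell to 8-cell 5 were lower, led by RPL27 (-1.94, adjusted p = 0.015), and 2 higher, RPLP0 (1.13, adjusted p = 0.0083) and RPS24 (1.0, adjusted p = 0.18). Whether the lists differed from the members was not tested. Among the other genes of mitochondrial translation and RNA named above, the calls of PTCD3 and OXA1L at 4-cell, of GFM1, SLIRP and SUPV3L1 from 4-cell to 8-cell and of MTRF1L, FASTKD2 and FASTKD5 in the knockdown held under 1 of the 2 rescalings.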

How the data were processed

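The members and gene lists were chosen with earlier results of these data known. Embryos were lysed directly and cDNA was made by Smart-seq2, which starts from poly(A) tails, so levels are those of tailed mRNA. The authors used HISAT2 with the goat assembly ARS1, dropped reads that map to several places, obtained gene counts from HTSeq and deposited FPKM values per gene and library. Genes with near-identical copies can lose reads to this filter. No value column was left unused (0 columns), and names listed more than once in a table were left out.

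The values, as log2(FPKM + 1), entered linear models of limma 3.58.1 (R 4.3.3; lmFit, then eBayes with trend), 9 untreated libraries in 1 fit with contrasts and 4 injected libraries in another, and a gene was fitted where its mean reached 1 FPKM. All p-values are two-sided, and adjusted p-values are Benjamini-Hochberg values over all genes of the fit. Fold changes are of FPKM + 1 and understate the change of low genes. In the untreated libraries whole fragments were recovered for 17898 of 17918 genes above 0 (tolerance 0.02 fragments), including all 77 members. The injected values are rounded to 2 decimals and gave no depth. Floors (3 fragments) cover counting error only. The fits were tested on simulated data. Symbols were matched to a RefSeq table of another release of the assembly, where all 77 members were found, and no coordinates are given. Promoter sequences were not used here.

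Named are called members whose groups do not overlap (up to 8 rises and 8 falls per comparison), the 3 highest and 3 lowest of each subunit, the MRPS18 paralogs, MRPS30, MRPS36, MRPL12, MRPS12, members below the filter and up to 3 called genes per list and direction. Others were named after their values were seen. The assignment of MRPS18A, MRPS30 and MRPS36 and of members to bacterial homologs follows textbook knowledge. Replicate numbers in the labels were not taken to pair the samples. Deviations of same-numbered untreated libraries correlated at -0.51 to 0.20, and those of the injected ones at -0.15. With 2 libraries per group the injected value cannot decide on pairing. Alternatives were a pseudocount of 0.1, no filter, 2 rescalings, a replicate block, leaving out each library, voom on the fragments, subunits by structure and the adjusted p in the call. Other steps ran in Python 3.11.15 (pandas 2.3.3, numpy 2.4.6, matplotlib 3.10.9, scipy 1.17.1).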

Additional observations from a re-analysis of the deposited data

How the results depend on the processing

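The direction of the members as a set against MII depended on the scaling, as given with each comparison. After equal summed FPKM the median at the 4-cell stage was -0.22. By direction, equal summed FPKM turned 16 higher and 9 lower at 4-cell into 5 and 16, and 10 higher and 14 lower at 8-cell into 5 and 19. With libraries left out set aside, the total of calls in either direction stayed within 1.5 times except from 4-cell to 8-cell, where 8 members became 3 with the adjusted p in the rule, and in the knockdown, where 43 became 19 and, with no filter on low values, 0 by the adjusted p of limma (37 by the unadjusted p). Leaving out 1 library gave 6 to 13 called members from 4-cell to 8-cell, the 13 without 8-cell replicate 2, medians of -1.16 to -0.84 in the knockdown and a large minus small subunit difference of -0.87 to -0.22. By the adjusted p the 17 lower members of the knockdown became 11 with the replicate block, and the 3 from 4-cell to 8-cell became 1 with the block and 0 without 4-cell replicate 1 or without 4-cell replicate 3 (8 and 6 by the unadjusted p of limma). No called member changed sign under any alternative. Of the called members, 14 of 25, 19 of 24 and 8 of 8 kept their calls under both rescalings in the stage comparisons, and 38 of 43 in the knockdown. With the replicate block 24 and 23 members were called against MII, 8 from 4-cell to 8-cell and 42 in the knockdown. By the unadjusted p of limma the block thus changed no total by over 1.5 times. With the 2 injected pairs crossed, chosen after seeing the data, 45 were called. The 11 members not tested between stages had a mean below 1 FPKM, and the lowest, MRPL9, had 0 to 5 fragments per library. Depth is unknown for the injected libraries.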
